A study of Mus musculus with 24 samples.

Results

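Trimethylation of lysine 4 of histone H3 (H3K4me3), a mark found mainly at active promoters, was examined at the genes of the Notch receptors Notch1 and Notch2, the transcriptional repressors Hes1, Hes5 and Hey1, and the inhibitors of DNA binding Id1, Id2, Id3 and Id4. Members were the counted regions that overlap an annotated transcription start site (TSS) of these 9 genes in mm9. They comprised 10 of the 17993 regions counted, because Hes1 has 2 such regions and each other gene has 1. The genes had been proposed as active mainly in glia and blood vessels of the adult brain, but a lower signal in chromatin purified from Camk2a-positive cells was called at only part of the group. In tChIP-Seq of the Camk2a line against the Rosa line 5 of the 10 regions were lower, 2 were higher and 3 did not pass the test, where 14.6% of all regions were lower and 17.0% higher. Both upward calls, at Id2 and at a Hes1 region, were lost with library totals alone, in the DESeq2 test and without Rosa tChIP-Seq library 1, and Id2 had a negative value (-0.14, not called) against single ChIP-Seq of the Camk2a line.

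The libraries came from the cerebral cortex of adult C57BL/6 mice of 2 lines that carry histone H2B tagged with FLAG at the Rosa26 locus under the CAG promoter. In Rosa H2B-FLAG mice the stop cassette had been removed in the germ line by Vasa-Cre, so that nearly all cells express the tagged histone. In Camk2a H2B-FLAG mice, double-heterozygous males, the cassette was removed by CreERT2 under the Camk2a promoter, which is active in excitatory pyramidal neurons, after tamoxifen at 1 mg per day for 5 days from 8 weeks of age, and tissue was taken a month later. The age and sex of the Rosa H2B-FLAG animals are not given in the sources used here. Each line gave 3 libraries of single ChIP-Seq, precipitated with anti-H3K4me3 antibody from all cells, and 3 of tandem ChIP-Seq (tChIP-Seq), in which chromatin was first purified with anti-FLAG antibody. Each lysate pooled 2 animals.

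Notch receptors are cell surface proteins that are cleaved when a Delta or Jagged ligand on a neighbouring cell binds them. The released intracellular domain enters the nucleus, joins the DNA-binding protein RBPJ and switches on repressor genes of the Hes and Hey families. Id proteins resemble those repressors in their helix-loop-helix domain but cannot bind DNA. They hold E proteins in inactive pairs, and their genes are well-known targets of bone morphogenetic protein (BMP) signals carried by SMAD proteins. In the brain Notch and Id genes are known for keeping neural stem cells undifferentiated, for roles in astrocytes, and for shaping the growth of blood vessels.

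The 10 regions were wide, with a median of 3946 bp against 2060 bp for the 13404 regions that overlap any TSS, while their median GC content of 52.5% lay close to the 54.2% of that set. The Notch1 region lay at chr2:26356688-26360172 and the Notch2 region at chr3:97816786-97818668. Hes1 was split between a region upstream of its coding TSS, chr16:30062993-30065298, and a region over the start and body of the gene, chr16:30065312-30067988, which are 13 bp apart. The upstream region holds the start of a longer annotated Hes1 transcript, at -956 from the coding TSS. The Hes5 region, chr4:154334155-154339744, also held the start of Pank4, 3200 bases downstream, and of the transcript RP24-89N4.5, so its counts cannot be assigned to Hes5 alone. The Hey1 region lay at chr3:8662701-8668837. The Id regions were chr2:152560849-152565541 for Id1, chr12:25777300-25780994 for Id2, chr4:135698713-135702909 for Id3 and chr13:48355704-48360611 for Id4, of which the last also held the start of the long non-coding RNA A330033J07Rik.

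The 250 bases upstream of the coding TSS are given for the 5 genes on which the comparisons turn: Notch1 and Id3, with the lowest signal in Camk2a tChIP-Seq, Hes1 and Id2, with a region that was higher there, and Hes5, which did not pass the test. Sequences are from the mm9 genome, read 5′ to 3′ on the strand of the gene, and capitals mark TGGGAA (or TTCCCA on the other strand), the core of the RBPJ motif, and GGCGCC, a core of BMP-responsive elements bound by SMAD1 and SMAD5. They lie at chr2:26359343-26359592 (minus strand) for Notch1, chr4:135699162-135699411 (plus strand) for Id3, chr16:30065176-30065425 (plus strand) for Hes1, chr4:154334782-154335031 (plus strand) for Hes5 and chr12:25780958-25781207 (minus strand) for Id2.
Notch1: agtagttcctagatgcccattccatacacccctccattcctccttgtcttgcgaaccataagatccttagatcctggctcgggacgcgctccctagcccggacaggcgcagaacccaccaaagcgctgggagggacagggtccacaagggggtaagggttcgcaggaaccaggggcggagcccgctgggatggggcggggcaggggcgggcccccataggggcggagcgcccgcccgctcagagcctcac
Id3: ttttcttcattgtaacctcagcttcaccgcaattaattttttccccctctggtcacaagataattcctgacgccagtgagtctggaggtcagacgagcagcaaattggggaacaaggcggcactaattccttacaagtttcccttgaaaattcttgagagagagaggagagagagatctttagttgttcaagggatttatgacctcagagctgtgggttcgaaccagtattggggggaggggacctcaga
Hes1: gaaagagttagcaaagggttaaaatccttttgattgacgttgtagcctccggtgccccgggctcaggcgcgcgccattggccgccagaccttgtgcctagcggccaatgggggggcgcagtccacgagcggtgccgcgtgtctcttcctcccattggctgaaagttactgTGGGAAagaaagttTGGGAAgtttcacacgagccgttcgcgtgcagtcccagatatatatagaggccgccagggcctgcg
Hes5: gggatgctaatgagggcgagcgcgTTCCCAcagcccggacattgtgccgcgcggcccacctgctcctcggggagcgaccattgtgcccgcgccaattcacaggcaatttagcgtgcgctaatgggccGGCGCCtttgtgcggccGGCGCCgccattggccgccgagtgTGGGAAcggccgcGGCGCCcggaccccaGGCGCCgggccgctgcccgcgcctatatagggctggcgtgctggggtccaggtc
Id2: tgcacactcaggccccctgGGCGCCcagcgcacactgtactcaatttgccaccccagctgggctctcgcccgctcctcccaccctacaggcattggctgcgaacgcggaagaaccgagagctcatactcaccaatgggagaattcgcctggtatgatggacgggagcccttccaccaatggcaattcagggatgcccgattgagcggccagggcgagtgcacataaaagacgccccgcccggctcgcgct

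In these windows TGGGAA began at -80 and -66 from the TSS in Hes1, on the same strand and close together. Both matches lie in the Hes1 region over the gene, which begins at -114. They are not in the upstream region that was called higher, which ends at -128. In Hes5 TGGGAA began at -82, and on the opposite strand at -226. No other member held it. Of the 46006 windows of the same length upstream of annotated protein-coding TSSs 20.4% did, and of the 26396 such windows at TSSs in counted regions 18.7%. GGCGCC, a palindrome, occurred at -123, -106, -69 and -54 in Hes5, at -231 in Id2 and at -89 in Hey1, against 12.4% of all windows and 19.6% of those in counted regions. The Id2 region begins only at -37, so the Id2 match and most of the Id2 window lie outside it. The Hes-binding N box, CACNAG searched on both strands, was present in 5 of the 9 members, 35.6% of all windows and 33.8% of those in counted regions. The E box bound by E proteins, CANNTG, was present in 3 of 9 members, 62.9% of all windows and 54.9% of those in counted regions. N stands for any base, and a match is a string of letters, not a measured binding site. Notch1 and Id3 held neither TGGGAA nor GGCGCC, which says only that these letters are not in this window.

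Total counts per library were 6316125 to 8644574 in Rosa single ChIP-Seq, 1457261 to 1828371 in Rosa tChIP-Seq, 4063200 to 4233144 in Camk2a single ChIP-Seq and 2709729 to 3049130 in Camk2a tChIP-Seq. Every member was counted in every library, with 50 reads as the lowest count (Id3 in Camk2a tChIP-Seq). Levels are given in CPM, the count per 1000000 counted reads of a library after scaling by TMM factors over the 12 libraries, with SD over 3 libraries. Tests are edgeR quasi-likelihood F tests with Benjamini-Hochberg adjustment over all 17993 regions, and a region was called at an adjusted p under 0.01.

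The receptor genes differed in size of change. At Notch1, Camk2a tChIP-Seq gave 23.0, 20.2 and 29.8 CPM, where Rosa tChIP-Seq gave 112.2, 122.3 and 121.4 CPM. All Camk2a libraries lay far below all Rosa libraries. The edgeR log2 fold change was -2.28 (SE 0.110, adjusted p = 1.33e-30), or 4.85-fold lower. Notch2 was at 52.5, 49.8 and 58.9 CPM in Camk2a tChIP-Seq and at 68.9, 74.0 and 78.7 CPM in Rosa tChIP-Seq. The groups did not overlap, but the difference was small, with an edgeR log2 fold change of -0.45 (SE 0.102, adjusted p = 0.000182). Counted within each library, Notch1 reads were 0.406 to 0.506 times the Notch2 reads in Camk2a tChIP-Seq and 1.54 to 1.65 times in Rosa tChIP-Seq. This ratio needs no scaling between libraries, and the exact permutation test gave a two-sided p of 0.1, the smallest that 3 against 3 libraries allow. The ranges of the levels above already kept the groups of this ratio apart, so that p is no separate test.

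In a mixed tissue, fewer cells that carry the mark and less of the mark in each cell cannot be told apart, which holds for each difference given here.

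**Figure D1:**
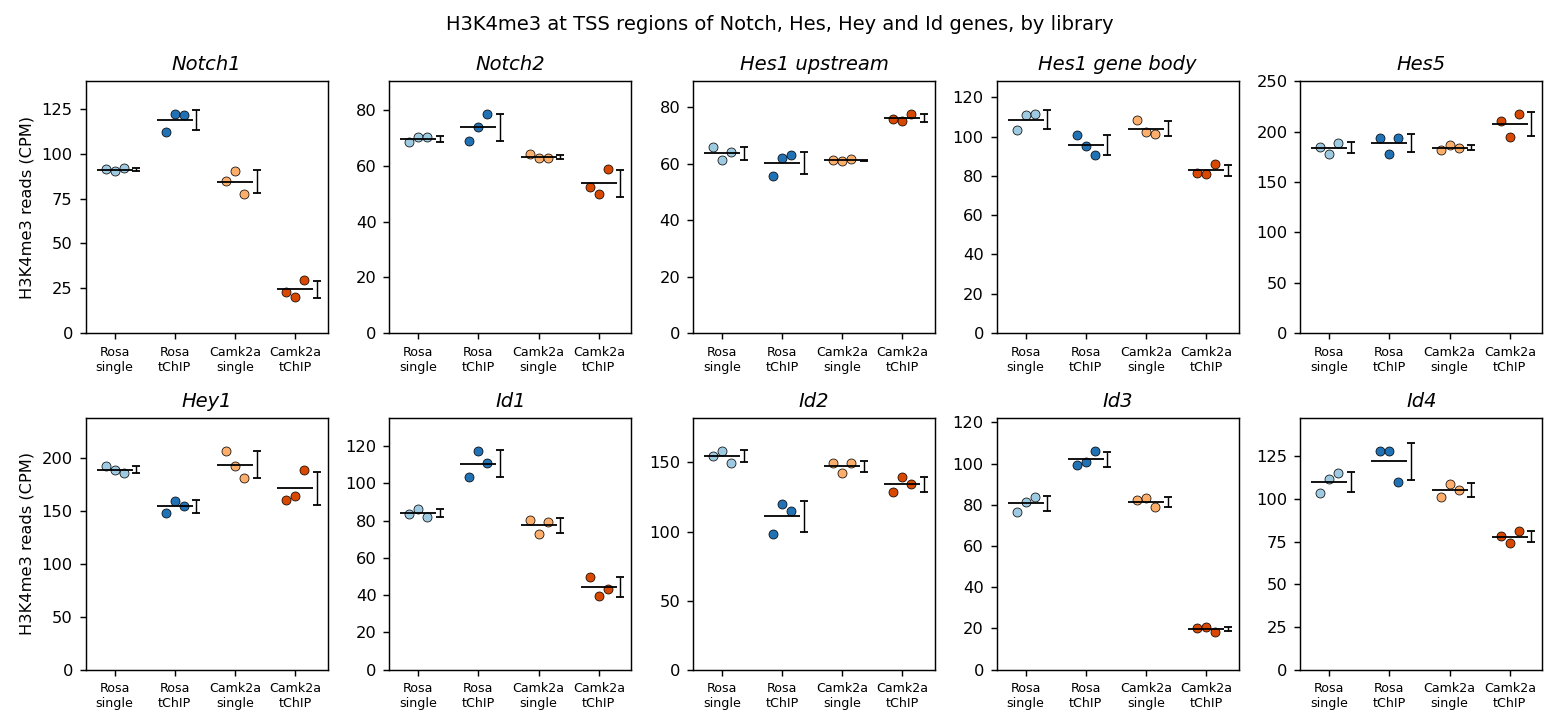
H3K4me3 reads in CPM (y axis, from 0) at each of the 10 TSS regions in the 4 groups (x axis). Points are libraries, horizontal lines are means and vertical bars are SD of 3 libraries. Notch1, Id1 and Id3 show a low Camk2a tChIP-Seq group, while the Hes1 upstream region shows a raised one and Hes5 and Hey1 stay near the other groups.

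Among the repressors, Hes1 showed opposite signs at its neighbouring regions. The upstream region was at 75.8, 75.1 and 77.7 CPM in Camk2a tChIP-Seq and at 55.8, 62.0 and 63.0 CPM in Rosa tChIP-Seq. The libraries did not overlap, and the region was higher in Camk2a tChIP-Seq by 0.35 on the log2 scale (edgeR SE 0.0982, adjusted p = 0.00237). It was no longer called without Rosa tChIP-Seq library 1, at an edgeR log2 fold change of 0.29 (adjusted p = 0.0385), with library totals in place of TMM factors (0.28, adjusted p = 0.0165) and in the DESeq2 test (0.34, adjusted p = 0.0259). The region over the gene was at 81.4, 81.2 and 85.8 CPM in Camk2a tChIP-Seq and at 100.7, 95.4 and 90.5 CPM in Rosa tChIP-Seq. All Camk2a libraries were lower, but the edgeR log2 fold change of -0.21 (SE 0.0851, adjusted p = 0.0435) did not pass the threshold. With library totals alone it did, at -0.28 (edgeR adjusted p = 0.00536).

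The division of Hes1 reads between its regions was therefore also taken within each library. The upstream region had 0.906 to 0.931 times the reads of the gene region in Camk2a tChIP-Seq. The ratio was 0.554 to 0.696 in Rosa tChIP-Seq, 0.552 to 0.638 in Rosa single ChIP-Seq and 0.566 to 0.607 in Camk2a single ChIP-Seq. The Camk2a tChIP-Seq libraries thus stood above the other 9, and the exact permutation p against Rosa tChIP-Seq was 0.1 (two-sided), again the smallest possible. That p was fixed by the levels above and is no separate test. All Camk2a tChIP-Seq libraries were already higher than Rosa tChIP-Seq at the upstream region and lower over the gene. The nearest region without a TSS, at chr16:30069801-30071098 downstream of Hes1 and chosen after values were seen, had an edgeR log2 fold change of 0.32 (SE 0.147, adjusted p = 0.0694).

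Hes5, a main Notch target in neural progenitors, was at 210.6, 194.9 and 217.7 CPM in Camk2a tChIP-Seq and at 193.6, 178.3 and 194.2 CPM in Rosa tChIP-Seq. The groups did not overlap, although their nearest libraries almost met, and the edgeR log2 fold change of 0.14 (SE 0.0598, adjusted p = 0.0451) was not called. Hey1, a Hes-related repressor known from vascular development, was at 160.4, 164.6 and 189.0 CPM in Camk2a tChIP-Seq against 148.2, 159.8 and 154.8 CPM in Rosa tChIP-Seq. It was not called either, at 0.16 on the log2 scale (edgeR SE 0.0669, adjusted p = 0.0535). The 95% intervals, 0.03 to 0.26 for Hes5 and 0.03 to 0.29 for Hey1, leave out a decrease of the size seen at Notch1. For Hes5, the reads near Pank4 within the same region limit what the value says about the repressor.

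The Id genes ranged from 5.14-fold lower to 1.22-fold higher. Id3 was at 20.0, 20.6 and 18.4 CPM in Camk2a tChIP-Seq, where Rosa tChIP-Seq gave 99.1, 100.8 and 106.3 CPM. This was the lowest level of any member and the lowest fold change, with an edgeR log2 fold change of -2.36 (SE 0.116, adjusted p = 3.19e-30), which ranked 232 from the bottom among all regions. Id1 was at 49.9, 39.3 and 43.5 CPM against 103.3, 117.5 and 110.9 CPM. All its Camk2a libraries lay below all Rosa libraries, and the edgeR log2 fold change was -1.30 (SE 0.0970, adjusted p = 2.22e-20). Id4, which is known from neural progenitors and astrocytes, was at 78.1, 74.3 and 81.0 CPM against 127.8, 128.2 and 109.6 CPM, without overlap. Its edgeR log2 fold change was -0.65 (SE 0.0821, adjusted p = 1.58e-10).

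Id2 moved the other way. It was at 128.6, 139.3 and 134.4 CPM in Camk2a tChIP-Seq and at 98.1, 119.9 and 114.8 CPM in Rosa tChIP-Seq, with no overlap. The edgeR log2 fold change was 0.29 (SE 0.0757, adjusted p = 0.00118), but without Rosa tChIP-Seq library 1, the lowest, it was 0.20 (adjusted p = 0.0662). With library totals alone (0.22, edgeR adjusted p = 0.0158) and in the DESeq2 test (0.28, adjusted p = 0.0159) Id2 was not called either. A separate region upstream of Id2, chr12:25782460-25786182, holds no TSS and was chosen after values were seen. It was also higher, by an edgeR log2 fold change of 0.27 (SE 0.0824, adjusted p = 0.00571).

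Within each library, Id3 reads were 0.137 to 0.156 times the Id2 reads in Camk2a tChIP-Seq and 0.841 to 1.01 times in Rosa tChIP-Seq. In single ChIP-Seq the ratio was 0.495 to 0.560 in the Rosa line and 0.527 to 0.585 in the Camk2a line. The Id1 to Id2 ratio was 0.282 to 0.388 in Camk2a tChIP-Seq and 0.966 to 1.05 in Rosa tChIP-Seq, and the Id4 to Id2 ratio 0.534 to 0.607 against 0.954 to 1.30. In single ChIP-Seq the Id1 to Id2 ratio was 0.510 to 0.537 in the Camk2a line and 0.539 to 0.548 in the Rosa line, which also did not overlap (exact permutation p of 0.1) but differed far less, and the Id4 to Id2 ratio overlapped, at 0.675 to 0.763 and 0.668 to 0.769. Id3 was also lower relative to Id1, with a ratio of 0.401 to 0.523 against 0.858 to 0.960. In each of these ratios the groups of tChIP-Seq did not overlap, and the exact permutation p was 0.1, the smallest possible. For the ratios to Id2 this was fixed by the levels above, so their p is no separate test. All Camk2a tChIP-Seq libraries were already higher at Id2 and lower at Id1, Id3 and Id4. At Id3 and Id1 both levels were lower, but the ranges of their levels already kept the groups of this ratio apart. Its p is therefore no separate test either.

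In all, line differences in tChIP-Seq were called at 2 of the 10 regions upward and at 5 downward. Over all regions 31.6% were called, 17.0% upward and 14.6% downward. The median log2 fold change of the members was -0.33, and that of all regions was -0.0033. Camk2a libraries lay above all Rosa libraries at 4 member regions and below them at 6, where 24.8% and 23.6% of all regions did so.

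**Figure D2:**
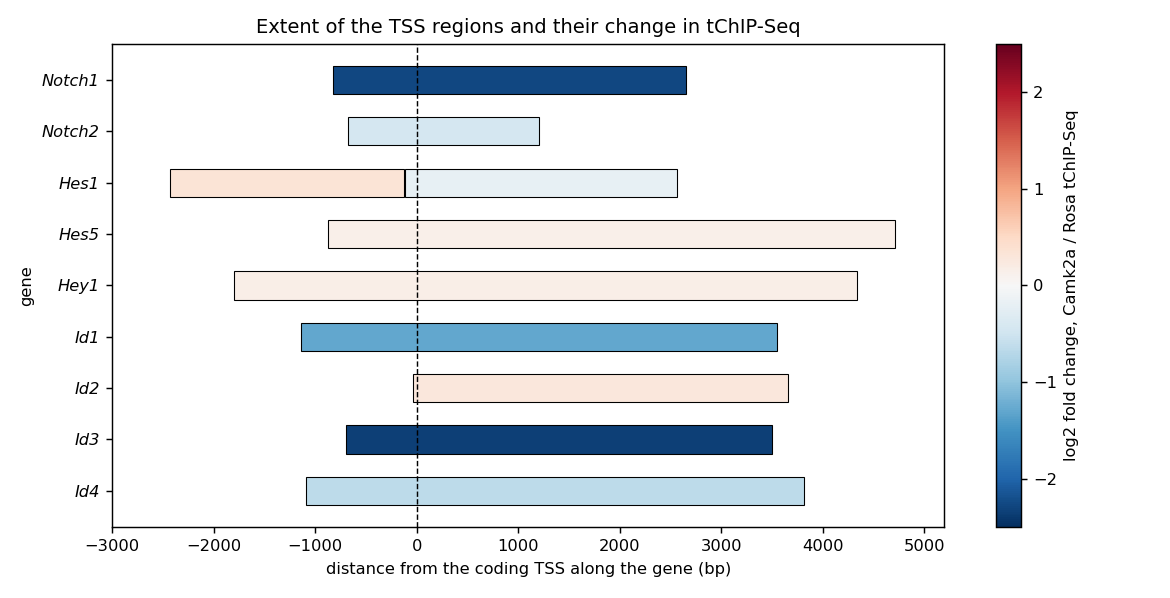
Extent of each TSS region relative to the coding TSS (x axis, bp along the gene, dashed line at 0), by gene (y axis), coloured by the log2 fold change of Camk2a against Rosa tChIP-Seq. The Hes1 regions meet just upstream of the TSS and carry opposite signs (0.35 upstream, -0.21 over the gene), and the darkest blue marks Notch1 and Id3.

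Single ChIP-Seq, which reads the same mark in all cells, showed no called difference between the lines at any of the 10 regions, where 2.15% of all regions were called, 0.928% higher and 1.22% lower in the Camk2a line. Without adjustment 2 regions, Notch2 and Id1, had a p under 0.05 in edgeR, and the DESeq2 test called 0 of the 10. The Camk2a libraries lay below all Rosa libraries at 3 member regions (Notch2, Id1 and Id2) and above them at 0, where 12.7% and 12.3% of all regions did so. At Id3 the Camk2a libraries were at 82.2, 83.5 and 78.8 CPM and the Rosa libraries at 76.6, 81.5 and 83.9 CPM, which overlap. The edgeR log2 fold change at Id3 was 0.01, with a 95% interval of -0.10 to 0.13 from its SE. At Notch1 the libraries were at 84.7, 90.7 and 77.8 CPM against 91.3, 90.3 and 92.1 CPM, again with overlap, and the edgeR log2 fold change was -0.11 (SE 0.0568, adjusted p = 0.228). The largest difference in size was at Notch2, -0.14 (SE 0.0658, edgeR adjusted p = 0.179). For each of the 10 regions the 95% interval stayed within -0.27 and 0.13.

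**Figure D3:**
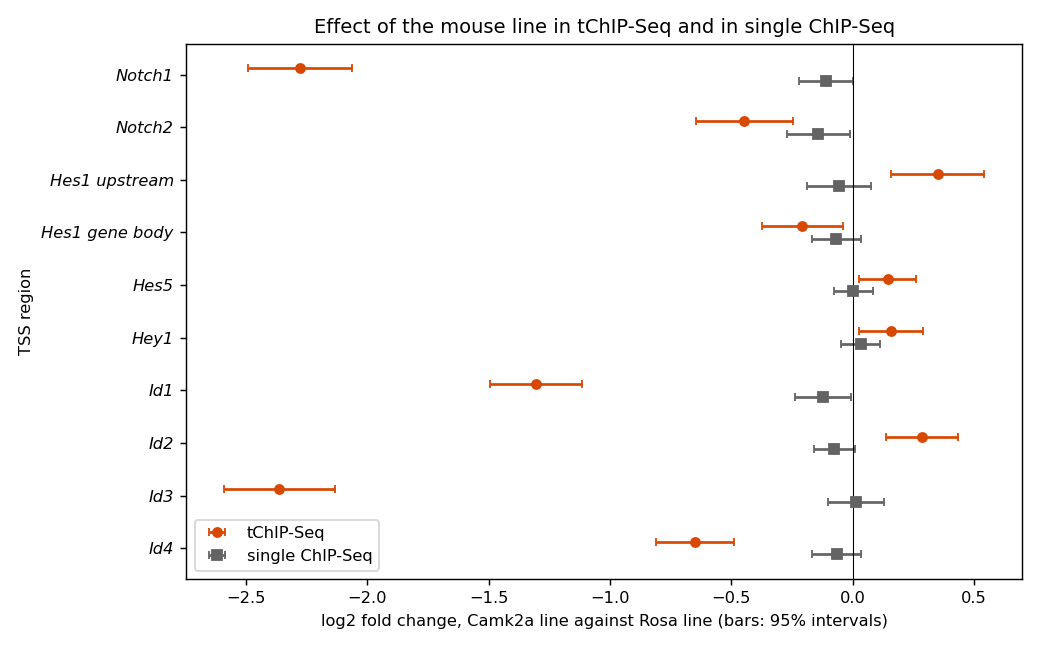
Log2 fold change of the Camk2a line against the Rosa line (x axis) for each TSS region (y axis) in tChIP-Seq (circles) and single ChIP-Seq (squares), with bars of 95% intervals from the edgeR SE. Single ChIP-Seq values all lie between -0.14 and 0.03, while tChIP-Seq values run from -2.36 at Id3 to 0.35 at the Hes1 upstream region.

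Whether the effect of the line differed between the kinds of ChIP-Seq was tested as an interaction over the 12 libraries. It was called at 6 regions, 4 downward and 2 upward, where 13.2% and 13.7% of all regions were (26.9% in all). Downward were Id3 (-2.39 on the log2 scale, edgeR adjusted p = 1.66e-45), Notch1 (-2.17, adjusted p = 1.33e-43), Id1 (-1.19, adjusted p = 3.37e-20) and Id4 (-0.59, adjusted p = 4.49e-08). Upward were the Hes1 upstream region (0.40, edgeR adjusted p = 0.00444) and Id2 (0.35, adjusted p = 0.000339), and both were lost with library totals alone (edgeR adjusted p = 0.0363 and 0.0109) and without Rosa tChIP-Seq library 1 (0.0411 and 0.0253). The Hes1 upstream difference was lost as well in the DESeq2 test (adjusted p = 0.0136), without Rosa single ChIP-Seq library 1 (edgeR adjusted p = 0.0110) and without Camk2a tChIP-Seq library 3 (0.0115). Notch2, called in tChIP-Seq, did not pass here, at -0.31 (edgeR adjusted p = 0.0325), so its effect was not shown to differ between tChIP-Seq and single ChIP-Seq.

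Tandem purification itself was examined within each line. In the Rosa line, where nearly all cells are tagged, 3 member regions were higher after tandem purification and 2 were lower, where 24.7% and 22.5% of all regions were (47.2% in all). Notch1 (log2 fold change 0.39), Id1 (0.40) and Id3 (0.35) were higher, with edgeR adjusted p of 2.11e-07, 2.29e-07 and 1.57e-05. Id2 fell from a mean of 154.4 ± 4.35 to 110.9 ± 11.4 CPM (SD, n = 3 libraries each; edgeR log2 fold change -0.48, adjusted p = 1.95e-12) and Hey1 had a log2 fold change of -0.29 (adjusted p = 2e-06). The Rosa tChIP-Seq group, against which Camk2a tChIP-Seq was compared, thus had more signal than whole tissue at the genes that were lowest in the Camk2a group, and less at Id2. Cell type markers also changed between Rosa tChIP-Seq and Rosa single ChIP-Seq. Of 9 excitatory neuron markers 7 were lower (median log2 fold change -0.88), and of 10 astrocyte markers 8 were higher and 1 lower (median 0.55). Of 5 pericyte and mural cell markers 4 were higher (median 1.06), and of 12 endothelial markers 5 (median 0.32). Of 8 inhibitory neuron markers 3 were higher and 0 lower (median 0.27). The oligodendrocyte lineage went the other way, with 1 of 8 higher and 3 lower (median -0.23). Their part in the member values was not tested.

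In the Camk2a line, 2 regions were higher after tandem purification and 6 were lower, where 25.3% and 22.6% of all regions were (47.9% in all). Here the comparison was made within 1 mouse line and without the Rosa libraries. Id3 had an edgeR log2 fold change of -2.05 (SE 0.106, adjusted p = 1.53e-45), Notch1 of -1.80 (SE 0.101, adjusted p = 7.85e-41) and Id1 of -0.80 (SE 0.0879, adjusted p = 1.74e-15). Smaller decreases were called at Id4 (-0.43), the Hes1 gene region (-0.33) and Hey1 (-0.18), with edgeR adjusted p of 2.17e-08, 1.4e-05 and 0.0015. Higher were the Hes1 upstream region (0.31, edgeR adjusted p = 0.000358) and Hes5 (0.17, adjusted p = 0.00113). In the DESeq2 test neither of these (adjusted p = 0.0113 and 0.0226) nor Hey1 (adjusted p = 0.0364) was called. Hes5 was also lost without Camk2a tChIP-Seq library 3, and Hey1 without each of Camk2a single ChIP-Seq library 1 and Camk2a tChIP-Seq libraries 1 and 2 (edgeR adjusted p of 0.0171 to 0.0475). Id2, higher against the Rosa line, was not called here and had a negative value, -0.14 (SE 0.0564, edgeR adjusted p = 0.0306), with all Camk2a tChIP-Seq libraries below all Camk2a single ChIP-Seq libraries. The direction at Id2 in Camk2a tChIP-Seq thus depended on the group it was compared with, whereas Notch1, Id1, Id3 and Id4 were lower against both.

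Levels per length, in CPM per kb of region, placed the members in a different order in each kind of chromatin. In Rosa single ChIP-Seq Id2 was highest (41.8 ± 1.18 CPM per kb), followed by the Hes1 gene region (40.6), Notch2 (37.1), Hes5 (32.9), Hey1 (30.8), the Hes1 upstream region (27.7), Notch1 (26.2), Id4 (22.4), Id3 (19.2) and Id1 (17.9 ± 0.450). Neighbours in this order overlapped in their libraries for Id2 with the Hes1 gene region and for Id3 with Id1. Camk2a single ChIP-Seq kept this order, from 39.8 CPM per kb at Id2 to 16.5 at Id1. Rosa tChIP-Seq compressed it to 23.6 (Id1) to 39.2 CPM per kb (Notch2), and each neighbouring pair overlapped.

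In Camk2a tChIP-Seq the members fell into levels far apart. Hes5 (37.2 ± 2.09 CPM per kb), Id2 (36.3 ± 1.45), the Hes1 upstream region (33.0 ± 0.597), the Hes1 gene region (30.9 ± 0.982), Notch2 (28.5 ± 2.49) and Hey1 (27.9 ± 2.51) formed the upper part. Hes5 did not differ from Id2 beyond the spread of the libraries, nor did Notch2 from the Hes1 gene region or from Hey1. Id4 (15.9 ± 0.684) lay apart from these, and Id1 (9.42 ± 1.13), Notch1 (6.98 ± 1.42) and Id3 (4.69 ± 0.266) were lowest, with Id1 and Notch1 overlapping. Among all TSS regions, Id3 stood at percentile 2.77, Notch1 at 4.51 and Id1 at 6.74 of CPM per kb in Camk2a tChIP-Seq, against 38.2, 71.2 and 35.6 in Rosa tChIP-Seq. No member was at 0.

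The regions with the most similar profile were found among 11203 TSS regions with at least 600 counts, by the root mean square (RMS) difference of centred log2(CPM + 1) over the 12 libraries. The libraries form 4 groups, so the measure describes likeness across groups as much as across libraries. Nearest to Notch1 were Acvrl1 (RMS difference 0.135), an endothelial receptor of the BMP family, and Cdc42ep1 (0.138), with a median of 0.867 over all candidates. Id3 was nearest to S1pr1 (0.0747), a receptor of sphingosine-1-phosphate, and Zfp366 (0.111), and Id1 to Fli1 (0.0738) and Mecom (0.109), both transcription factors. The log2 fold changes of these 6 genes in tChIP-Seq between the lines ran from -2.33 at Zfp366 to -1.36 at Fli1.

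The remaining members had flatter profiles and nearer neighbours in general. The Hes1 upstream region was nearest to Npas2 (0.0364) and Mpped2 (0.0493), the Hes1 gene region to Prkaa1 (0.0360) and Eif4b (0.0412), Hes5 to Rassf3 (0.0535) and Hcfc1r1 (0.0542), and Hey1 to Ssr3 (0.0469) and Atp6v0b (0.0567). Id2 was nearest to Man1a2 (0.0468) and Capn7 (0.0534), Id4 to Gbp7 (0.0762) and Anks1 (0.0774), and Notch2 to 2510012J08Rik (0.0525) and Ubash3b (0.0594). Among the members, the closest pair was the Hes1 upstream region with Hes5 (0.0958), followed by Hey1 with Id2 (0.104) and Notch2 with Id4 (0.125). Notch1 was closer to Id3 (0.173) than to Notch2 (0.713), and the Hes1 regions differed by 0.278.

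Other genes of the pathway were taken from lists, with the highest-count TSS region of each gene. Some of these regions also hold the start of another gene, and their counts cannot be assigned to the listed gene alone. Some genes have more than 1 TSS region, such as Neurl1a and Acvrl1 (2 each) and Tcf4 (4), and their other regions were not examined. Of 7 Notch ligands, 6 had a region, and between the lines in tChIP-Seq 3 were lower and 2 higher, where 14.6% and 17.0% of all regions were. Jag1, a ligand prominent in vessels and progenitors, was at 53.6 ± 4.93 CPM in Camk2a and 145.9 ± 12.3 CPM in Rosa tChIP-Seq (SD, n = 3 libraries each), with an edgeR log2 fold change of -1.43 (SE 0.0866, adjusted p = 3.81e-25). Dll4, the ligand of sprouting endothelium (-0.63, adjusted p = 2.87e-07), and Dll1 (-0.49, adjusted p = 1.19e-07) were lower by edgeR as well. Dlk2 (0.68, edgeR adjusted p = 1.02e-09) and Jag2 (0.41, adjusted p = 1.88e-05) were higher.

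Both other receptor genes had regions. Notch3, the receptor of vascular smooth muscle and pericytes, was at 11.6 ± 2.86 CPM in Camk2a and 34.2 ± 7.08 CPM in Rosa tChIP-Seq (SD, n = 3 libraries each; edgeR log2 fold change -1.56, SE 0.183, adjusted p = 1.16e-11). Notch4, known from endothelium, has 2 TSS regions, of which only the one with the higher count, chr17:34723435-34725506, was read. It was not called, at -0.05 (SE 0.103, edgeR adjusted p = 0.717). The other Notch4 region was not examined, so the value does not cover all starts of the gene. Of 25 genes that process or modify the receptors and ligands, 5 were higher and 2 lower, where 17.0% and 14.6% of all regions were. The other 18 were not called, among them those of the gamma-secretase complex. The difference from the shares of all regions was not tested. The 2 that were lower are both Fringe glycosyltransferases, which add sugar to Notch: Mfng (edgeR log2 fold change -2.35, adjusted p = 1.22e-09), at only 3.00 ± 1.77 CPM in Camk2a against 15.5 ± 4.37 CPM in Rosa tChIP-Seq (SD, n = 3 libraries each), and Lfng (-1.91, adjusted p = 1.21e-30). The third Fringe gene, Rfng, was at 0.10 and not called. Highest of the 5 that rose was Neurl1a, a ubiquitin ligase acting on ligands (0.69, edgeR adjusted p = 5.38e-11). The others were Dtx4, Dtx1, Neurl1b and Numbl, between 0.44 and 0.63.

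Of the genes of the nuclear complex, 15 of 17 with a region were not called, where 31.6% of all regions were called and the difference from that share was not tested, none was called higher (1 at an unadjusted p under 0.05), and Kat2b (-0.34, edgeR adjusted p = 2.89e-05) and Rbpj (-0.23, adjusted p = 0.00288) were lower. Rbpj, the DNA-binding partner of the Notch domain, was at 143.0 ± 4.29 CPM in Camk2a and 168.1 ± 5.07 CPM in Rosa tChIP-Seq (SD, n = 3 libraries each). None of the 9 other Hes, Hey and Tle genes with a region was called by edgeR at the adjusted threshold, Hes6 included (-0.06, adjusted p = 0.648), and 0 of them was higher and 3 lower at an unadjusted p under 0.05. Heyl had no region. These lists describe how few or many genes passed, and were not tested as sets.

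Upstream of the Id genes, 29 BMP pathway genes had a region, of which 7 were higher and 5 lower, where 17.0% and 14.6% of all regions were. Lowest was Eng, an endothelial co-receptor, at 5.36 ± 3.03 CPM in Camk2a and 37.3 ± 2.96 CPM in Rosa tChIP-Seq (SD, n = 3 libraries each; edgeR log2 fold change -2.81, SE 0.216, adjusted p = 1.04e-19). Acvrl1 (-2.25, adjusted p = 3.62e-16), the receptor that pairs with Eng, the inhibitory SMAD gene Smad6 (-1.86, adjusted p = 4.02e-28), Bmp6 (-0.87) and Bmp7 (-0.72) were the other genes called lower by edgeR. Bmp3 was highest (1.33, SE 0.113, edgeR adjusted p = 1.36e-17). The others that rose include the secreted BMP antagonists Grem1 (0.91), Chrd (0.39) and Nog (0.36), which were singled out after their values were seen. The Chrd region also held the start of Thpo, and the Nog region that of Gm2018. The widely used receptor gene Bmpr1a (0.08, edgeR adjusted p = 0.450) and the second inhibitory gene Smad7 (-0.08, adjusted p = 0.152) were not called.

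Among 14 E protein and other bHLH genes with a region, the partners and competitors of Id and Hes proteins, 6 were higher and 5 lower, where 17.0% and 14.6% of all regions were. Neurod1, a neuronal activator, was highest (1.47, SE 0.113, edgeR adjusted p = 1.32e-19), and Olig2, of the oligodendrocyte lineage, was lowest (-2.48, SE 0.142, adjusted p = 1.83e-26). The Neurod1 region also held the starts of Cerkl and Gm17325, so its counts cannot be assigned to Neurod1 alone. Of the E proteins, Tcf3 was lower (-0.33, edgeR adjusted p = 0.000743). Tcf4 was not called at the 1 region read of its 4 (-0.05, edgeR adjusted p = 0.528). The other genes called lower were Tal1, Olig1 and Atoh8. In single ChIP-Seq, Olig1 and Olig2 were likewise called lower in the Camk2a line.

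**Figure D4:**
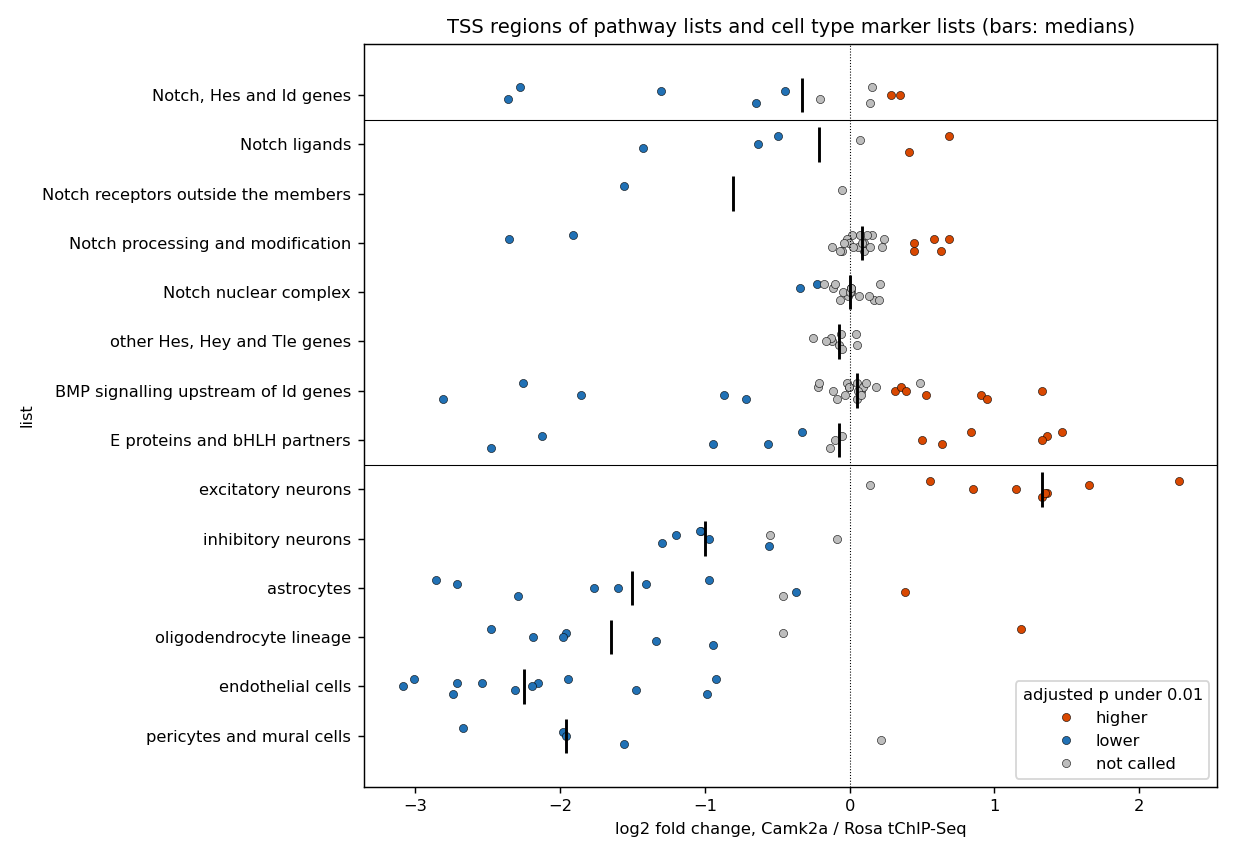
Log2 fold change of Camk2a against Rosa tChIP-Seq (x axis) for the member regions, 7 pathway lists and 6 cell type marker lists (y axis). Points are TSS regions coloured by the edgeR call and bars are medians. The members spread from near the median of the endothelial list (-2.25) to slightly above 0. The medians of the pericyte and mural cell (-1.96), oligodendrocyte lineage (-1.65), astrocyte (-1.50) and inhibitory neuron (-0.999) lists lay in between. The excitatory neuron list (median 1.33) lay well above.

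Cell type markers in the same libraries were compared beside the members. Of 12 endothelial markers with a region, 12 were lower in Camk2a than in Rosa tChIP-Seq, with a median log2 fold change of -2.25, and their summed level was 139.1 to 146.6 CPM against 468.6 to 487.5 CPM. Notch1 and Id3, at -2.28 and -2.36, lay near that median. Values of this size also occurred on other lists, at the astrocyte marker Gja1 (-2.29), at Olig2 of the oligodendrocyte lineage (-2.48) and at the pericyte marker Pdgfrb (-2.67). These were picked after values were seen. Of 10 astrocyte markers, 8 were lower and 1, Slc1a2, was higher (median -1.50, summed 404.8 to 413.9 against 694.0 to 757.1 CPM), and Gfap had no region. Of 5 pericyte and mural cell markers 4 were lower (median -1.96), of 8 oligodendrocyte lineage markers 6 were lower and 1, Mbp, was higher (median -1.65), and of 8 inhibitory neuron markers 6 were lower (median -0.999). Mbp has 2 TSS regions, of which only the one with the higher count, chr18:82643953-82646548, was read. The other was not examined. Of 9 excitatory neuron markers 8 were higher (median 1.33, summed 1277 to 1351 against 543.9 to 580.7 CPM). No gene on these lists with a region was at 0 in any group. Whether the remaining reads in Camk2a tChIP-Seq came from other cell types or from the Camk2a-positive cells, at the markers as at Notch1, Id1 and Id3, was not tested. Olig1, Olig2, Neurod2, Neurod6 and Notch3 stand on both a pathway list and a marker list, and Cspg4 on 2 marker lists. Microglia were not assessed.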

How the data were processed

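H3K4me3 was measured in 12 libraries of 4 groups of 3. The authors removed reads from repeats with Bowtie2 2.1.0, mapped the rest to mm9 with Bowtie 1.0.0, removed duplicates, called peaks with MACS and deposited read counts per region (bedtools 2.17.0), as whole numbers without normalization, on 1 list of 17993 regions; tool versions are from the submitters' processing notes. How the list was merged from peak calls is not given in the sources used here. The 12 input and FLAG libraries were not analysed here.

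Regions were assigned to genes by overlap with a TSS of GENCODE M1 (mm9); 25 regions on other sequences stayed in the tests. Comparisons of 2 groups used the 6 libraries concerned and the interaction used 12, in edgeR 4.0.16 (R 4.3.3; TMM, glmQLFit, glmQLFTest, no filter, no covariate). The SE was the absolute log2 fold change over the root of its F statistic, and 95% intervals are normal intervals from it. CPM used the TMM factors of all 12 libraries. Ratios within libraries were compared by exact permutation tests. In simulated data, regions drawn at random from all regions and changed by 1 on the log2 scale were recovered in 79 of 100 cases for lines in tChIP-Seq, 91 for lines in single ChIP-Seq and 78 for the interaction, and at a change of 0.5 in 56, 76 and 43. False calls numbered 2 or fewer per comparison.

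The genes, lists and tests were chosen with earlier results of these data known. Named genes were all members, the genes of each list with the largest called change in each direction and non-overlapping libraries, 13 genes fixed by name for their role (1 is not reported here), and the 2 most similar regions per member; others are named where a count is 5 or less. Alternatives were library totals alone, DESeq2 size factors, the DESeq2 1.42.0 test, a filter on mean counts under 10, a replicate block and leaving out each library.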

Additional observations from a re-analysis of the deposited data

Results flagged for a closer look

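The effect of the line (Camk2a against Rosa) differed between tChIP-Seq and single ChIP-Seq at 6 of the 10 regions by the edgeR interaction test over 12 libraries. The differences on the log2 scale were -2.39 at Id3, -2.17 at Notch1, -1.19 at Id1 and -0.59 at Id4, and 0.40 at the Hes1 upstream region and 0.35 at Id2. The 4 negative ones were called in each of 17 alternatives. The Hes1 upstream difference was called in 12 of 17 and the Id2 difference in 15 of 17.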

How the results depend on the processing

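In tChIP-Seq between the lines, Notch1, Notch2, Id1, Id3 and Id4 were called lower in each of 12 alternatives. The number of member regions called higher fell from 2 to 0 with library totals alone and in the DESeq2 test, and was 0 to 2 when a library was left out. In the Camk2a line, regions higher after tandem purification fell from 2 to 0 in the DESeq2 test and were 1 to 2 with a library left out (1 without Camk2a tChIP-Seq library 3). For the interaction the upward calls fell from 2 to 0 with library totals alone and to 1 in the DESeq2 test, and were 0 to 2 with a library left out. The cause was not tested. Id4 between tChIP-Seq and single ChIP-Seq of the Rosa line became a call with library totals alone (edgeR adjusted p = 0.000228) and without Rosa tChIP-Seq library 3 (0.00702), Notch2 in the Camk2a line without Camk2a tChIP-Seq library 3 (0.0056), and Notch2 in the interaction with library totals alone (0.00408).

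Signs reversed only for uncalled values: between the lines in single ChIP-Seq, Id3 without Rosa library 1 (-0.019) and without Camk2a library 2 (-0.0049), in a range of up to 0.039 when each library was left out, Hes5 without Rosa library 2 (-0.025) and without Camk2a library 2 (-0.0078), in a range of up to 0.020, Hey1 without Camk2a library 1 (-0.018), in a range of up to 0.075, and, between the kinds of ChIP-Seq in the Rosa line, Hes1 upstream with library totals alone (0.025). Over all regions, library totals alone changed the calls between the lines in tChIP-Seq from 3062 higher and 2620 lower to 2570 and 3315, between kinds in the Rosa line from 4439 and 4046 to 5298 and 2522, and for the interaction from 2466 and 2375 to 1894 and 2970, with medians of all regions of -0.0745, 0.0974 and -0.0956. Between the lines in single ChIP-Seq, 167 and 219 calls became 194 and 57 with library totals alone, 27 and 7 in the DESeq2 test, and 69 to 131 and 49 to 165 with a library left out. In the Camk2a line the DESeq2 test called 2414 regions lower against 4058.

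Same-numbered libraries correlated at -0.018 to 0.045 in their deviations from the group means, and other-numbered ones at -0.040 to 0.038. Same-numbered pairs lay above the others between the kinds of ChIP-Seq in the Rosa line (0.0126 to 0.0446 against -0.0246 to 0.0105). They did so too between the lines in single ChIP-Seq (0.0021 to 0.0119 against -0.0111 to 0.00091). In the remaining comparisons the ranges overlapped. All values were small, so replicate numbers were not shown to pair the libraries, and a pairing was not excluded. A replicate block changed no member call and gave 2948 higher and 2520 lower regions between the lines in tChIP-Seq. Levels in CPM moved by more than the SD of the libraries in 11 cases with other scaling. In simulated data a change of 0.5 on the log2 scale was recovered in 43 of 100 regions for the interaction and 56 of 100 for lines in tChIP-Seq, so smaller changes can be missed. Those regions were drawn at random from all 17993, low counts included, and few regions were changed. The rate at the member regions was not simulated and can differ.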
